A study of Rattus norvegicus with 12 samples.

Results

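Liver RNA of Long Evans Cinnamon (LEC/Crj) rats, taken from nontumor tissue at 67 weeks of age, was compared with liver RNA of Long Evans Agouti (LEA) rats of the same age. These were 5 of the 12 Affymetrix rat expression arrays in the series, chosen by their titles: 4 nontumor arrays and 1 LEA array. All rats were labelled male and kept free of specific pathogens, without a treatment named in the labels. Each nontumor array was made from RNA of 2 tissue pairs mixed in equal amounts, out of 8 pairs of tumor and adjacent nontumor liver, so this tissue lay beside tumors. The LEA array was a single pool of RNA from a number of rats not given in the sources used here. A pool of LEC liver at 4 weeks, 1 array as well, was used to ask which differences from LEA were already present in young LEC rats. Pools of LEC liver at 26 and 39 weeks gave further values. No array holds young LEA liver, so strain and age cannot be told apart on the 4 week array, and all comparisons with LEA share its single array.

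LEC rats are an animal model of Wilson disease. They lack a working Atp7b, the ATPase that moves copper out of hepatocytes into bile and loads it onto ceruloplasmin, and copper builds up in their livers, bound in part by metallothioneins. Hepatitis, a growth of bile ductules with scar tissue, and liver tumors follow with age, while LEA rats, bred from the same stock, handle copper normally.

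Levels are RMA values in log2 units, so that a difference of 1 is a 2-fold change. Differences are given with the standard error from limma, a linear model fitted across all probe sets, whose spread came from the 4 nontumor arrays alone with 3 residual degrees of freedom. The lone arrays were assumed to vary like those 4. A probe set was called at an adjusted p under 0.05, and values around 6 are not above background, since probe sets for absent bacterial RNA reached 6.11 on the LEA array and between 5.88 and 6.01 on the nontumor arrays. Nothing in the labels says which rats entered which pool, so p-values measure only the spread between these samples, and the number of arrays limits the precision. In whole liver RNA, a change in the number of cells of a type and a change in RNA per cell cannot be told apart.

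The 4 nontumor arrays fell into pairs. Across probe sets, which are not independent, arrays 1 and 2 correlated at 0.993 and arrays 3 and 4 at 0.99, against 0.975 to 0.985 between the pairs. All 18 spiked control probe sets were higher on arrays 1 and 2 than on arrays 3 and 4, and 227 genes differed by at least 1 log2 unit between the means of the pairs. The LEA array correlated with arrays 1 to 4 at 0.987, 0.983, 0.97 and 0.966. Hepatocyte markers, 7 of 8 measured, summed to between 16.83 and 16.91 on the nontumor arrays and 16.81 on the LEA array, so the label of liver holds for all 5. Xist, an RNA of female cells, lay at 11.36 or above on the nontumor, LEA and 4 week arrays but at 5.27 and 5.67 on the 26 and 39 week arrays, against labels that give every rat as male. Counts that use the 26 and 39 week arrays are therefore given apart from those that do not. In values of single genes on the 26 and 39 week arrays, age and this difference in Xist cannot be told apart.

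Atp7b, the gene whose loss defines the strain, lay at 8.64, 8.53, 8.55 and 8.62 on nontumor arrays 1 to 4 and at 9.17 on the LEA array. The 4 nontumor values were all lower than LEA, by -0.58 ± 0.13, and the gene was not called (adjusted p = 0.336), although it was with the spread of all 12 arrays (0.0469). At 4 weeks the level was 8.55. A second, dimmer probe set of Atp7b lay between 6.10 and 6.39 on the nontumor arrays and at 6.59 on the LEA array. Where these probe sets lie relative to the deleted part of the gene was not analysed here, so the levels do not check the strain labels.

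Of 31042 probe sets, 38 were called between LEC nontumor and LEA liver, 12 higher (0.0387% of those tested) and 26 lower (0.0838%), together 0.122%, and 2595 had an unadjusted p under 0.05. When each gene was represented by its brightest probe set, 17 of 14217 genes were called (0.12%). In LEC liver 8 rose (0.0563%) and 9 fell (0.0633%). Sorted by the 4 week array, 15 of these 17 genes already stood at least 1 log2 unit from LEA in the same direction at 4 weeks, and 2 did not. On that array 134 of all genes (0.943%) lay at least 1 log2 unit above LEA and 192 (1.35%) that far below. The calls depended on which nontumor arrays were used. Without array 1, 2, 3 or 4 the called probe sets numbered 14, 12, 5 and 33, and 3, 4, 2 and 10 of the 17 genes were still called; Stac3 was called each time.

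**Figure D1:**
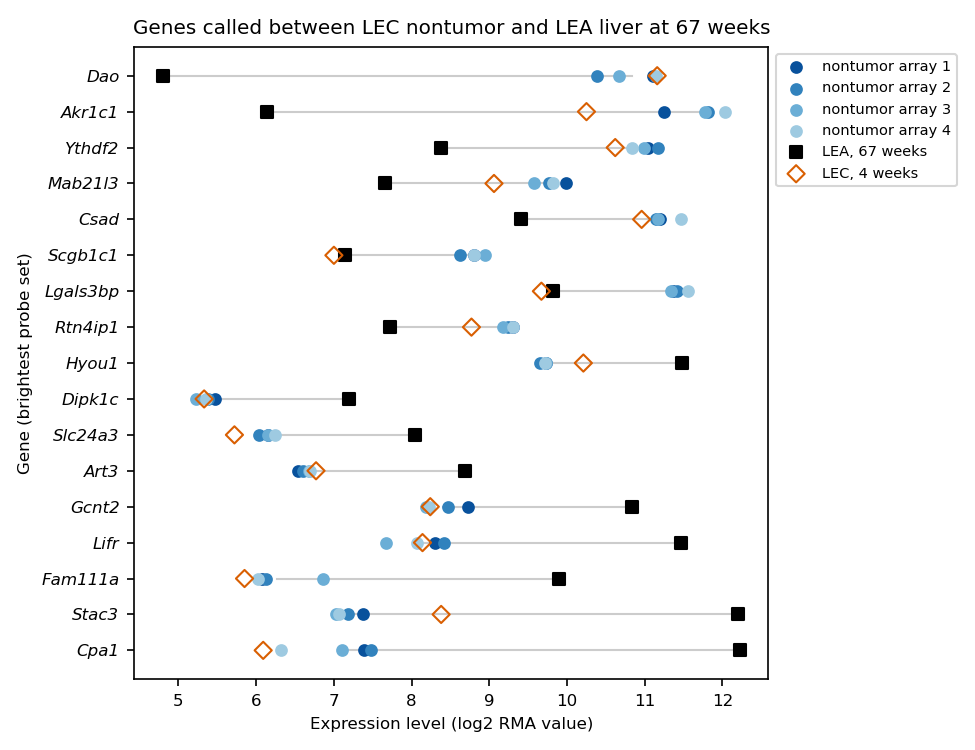
Expression level on a log2 scale (horizontal axis) of the 17 called genes (vertical axis), with 4 nontumor arrays as blue circles, the LEA array as a black square and the LEC array at 4 weeks as an open orange diamond; the grey line joins LEA to the nontumor mean. The 4 week symbol lies nearer to the nontumor circles than to the LEA square for 15 genes, and beside the LEA square for Scgb1c1 and Lgals3bp.

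The largest rises were in 2 enzymes. Dao, the D-amino acid oxidase that breaks down D-amino acids in peroxisomes, lay at 11.11, 10.39, 10.67 and 11.15 on the nontumor arrays and 4.80 on the LEA array. Its LEA level lay within the range of absent RNA, so LEC nontumor liver was at least 26.3-fold higher (measured difference 6.03 ± 0.32, adjusted p = 0.00636). At 4 weeks Dao already lay at 11.16, and it stayed near that level at 26 weeks (9.97) and 39 weeks (10.87). Without array 3 the adjusted p of Dao was 0.0608. Akr1c1, an aldo-keto reductase that reduces steroids and other carbonyl compounds, lay at 11.25, 11.81, 11.78 and 12.03 against 6.14 in LEA, a measured rise of 47.7-fold (5.58 ± 0.29, adjusted p = 0.00636). Its LEA level was barely above the 6.11 that absent RNA reached there, so the size of this fold is uncertain. The 4 week level of Akr1c1 was 10.25, below every nontumor array and far above LEA, and its call was lost without array 3 (adjusted p = 0.0608) and with the spread of all 12 arrays (0.0647).

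Smaller rises already present at 4 weeks were found in Csad, Ythdf2, Mab21l3 and Rtn4ip1. Csad, which makes hypotaurine on the way to taurine, lay between 11.14 and 11.46 on the nontumor arrays, at 9.41 in LEA and at 10.96 at 4 weeks (1.83 ± 0.17, adjusted p = 0.039). Mab21l3 lay between 9.57 and 9.99 against 7.66 in LEA, with 9.06 at 4 weeks (2.12 ± 0.18, adjusted p = 0.0342). For both genes the 4 nontumor values lay above the 4 week value, and none overlapped LEA. Ythdf2, a reader of methylated adenosine in mRNA, lay between 10.84 and 11.17 against 8.38 in LEA (2.63 ± 0.16, adjusted p = 0.0103), and Rtn4ip1, a mitochondrial protein, between 9.17 and 9.31 against 7.72 (1.54 ± 0.13, adjusted p = 0.0342). Their other probe sets differed by only -0.04 for Ythdf2 and 0.01 for Rtn4ip1, so for these 2 genes the rise rests on 1 probe set each, and both calls were lost when probe sets were averaged (adjusted p = 0.108 and 0.223). Calls of Csad, Mab21l3 and Rtn4ip1 were lost without array 1, 2 or 3 (adjusted p from 0.0873 to 0.218), as was that of Ythdf2 without array 1 or 3 (0.0644 and 0.0863). Without array 4 those of Mab21l3 (0.0568) and Rtn4ip1 (0.0585) were lost too. Removing dim probe sets ended the calls of Csad, Mab21l3 and Rtn4ip1 (0.0514 to 0.0544), and Csad was not called with the spread of all 12 arrays (0.0515) or with quantile normalization again (0.0979).

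Lgals3bp and Scgb1c1 were the 2 called genes that did not differ by 1 log2 unit from LEA at 4 weeks. Lgals3bp, a secreted glycoprotein that binds galectin-3, lay at 11.36, 11.42, 11.34 and 11.56 on the nontumor arrays and at 9.82 in LEA (1.60 ± 0.14, adjusted p = 0.039). It lay at 9.67 at 4 weeks, 10.54 at 26 weeks and 10.86 at 39 weeks, each below all 4 nontumor arrays. Scgb1c1, a member of the secretoglobin family, lay at 8.80, 8.62, 8.95 and 8.80 against 7.14 in LEA (1.65 ± 0.16, adjusted p = 0.0474), with 7.0, 7.88 and 8.69 at 4, 26 and 39 weeks. Both calls were lost without any one of the 4 arrays (adjusted p from 0.0533 to 0.209), without dim probe sets (0.0544 and 0.0604) and with quantile normalization again (0.0844 and 0.082). A trended robust prior gave Scgb1c1 an adjusted p of 0.0506.

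All 9 called genes that were lower in LEC liver were already lower at 4 weeks. Cpa1, a digestive carboxypeptidase of the pancreas, lay at 12.22 on the LEA array, against 7.39, 7.48, 7.11 and 6.32 on the nontumor arrays and 6.09 at 4 weeks, a 35.4-fold fall (-5.15 ± 0.44, adjusted p = 0.0342). The other pancreas markers did not follow it: on the LEA array Cela1 lay at 6.90, Pnlip at 6.92 and Prss1 at 6.77, none above the nontumor range. The 4 pancreas markers thus summed to 12.32 in LEA and 9.01 to 9.41 in nontumor liver through Cpa1 alone. Without array 1, 2 or 3 the call of Cpa1 was lost (adjusted p = 0.0873, 0.0819 and 0.209).

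Stac3, a protein that couples excitation to contraction in skeletal muscle, lay at 12.20 in LEA and at 7.37, 7.18, 7.03 and 7.06 on the nontumor arrays, a 32.8-fold fall (-5.04 ± 0.17, adjusted p = 0.00135). Its levels at 4, 26 and 39 weeks were 8.38, 9.75 and 8.18, above every nontumor array and below LEA. Stac3 was the one gene of the 17 that kept its call under every alternative run, with an adjusted p of at most 0.0172. The 3 muscle markers summed to 12.22 in LEA and to between 12.53 and 12.72 in nontumor liver. Ckm lay at 6.87 in LEA against 6.53 to 6.66, Tnni2 at 7.12 against 6.99 to 7.21, and Myh1 at 12.14 against 12.47 to 12.68.

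Lifr, the receptor of leukemia inhibitory factor, lay at 11.47 in LEA against 8.30, 8.42, 7.67 and 8.07 (-3.36 ± 0.29, adjusted p = 0.0342), and its second probe set was called as well (-4.36, adjusted p = 0.039). Fam111a, a protease that restricts viral replication, lay at 9.90 against 6.08, 6.12, 6.86 and 6.02 (-3.63 ± 0.34, adjusted p = 0.039). Both genes lay within or below the nontumor range at 4 weeks, at 8.14 for Lifr and 5.85 for Fam111a. On nontumor arrays 1, 2 and 4 Fam111a was barely above the range of absent RNA, and at 4 weeks it lay within that range. The size of its fall is therefore uncertain. Hyou1, a chaperone of the endoplasmic reticulum, lay at 11.48 against 9.65 to 9.73 (-1.77 ± 0.13, adjusted p = 0.0185), and its second probe set gave -1.55 (adjusted p = 0.0578). The glycosyltransferase Gcnt2 (-2.43 ± 0.23), the ADP-ribosyltransferase family member Art3 (-2.07 ± 0.13), the sodium and calcium exchanger Slc24a3 (-1.89 ± 0.14) and Dipk1c (-1.85 ± 0.15) fell with adjusted p-values from 0.013 to 0.0441. Dipk1c lay within the range of absent RNA on all 4 nontumor arrays, so it was at least 2.38-fold lower. Slc24a3, between 6.04 and 6.24 on the nontumor arrays, was barely above that range, and its second probe set gave -0.76 (adjusted p = 0.254). The 6 genes other than Hyou1 lost their calls without array 1 or 2 (adjusted p from 0.0644 to 0.131), as did Hyou1 (0.0873 and 0.0799), and without array 3 all but Fam111a did (0.0608 to 0.209). Without array 4 the calls of Lifr, Fam111a and Gcnt2 were lost (0.056 to 0.0619), that of Gcnt2 also without dim probe sets (0.0544), and that of Slc24a3 with the spread of all 12 arrays (0.0672).

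Some genes were called by a probe set other than their brightest. Scd2, a stearoyl-CoA desaturase that makes monounsaturated fatty acids, lay at 12.84 in LEA by its brightest probe set and at 8.63, 9.22, 8.72 and 7.47 on the nontumor arrays (-4.34 ± 0.60, adjusted p = 0.142), and 2 dimmer probe sets of Scd2 were called (-3.30, adjusted p = 0.00636, and -1.57, adjusted p = 0.0315). At 4 weeks the brightest probe set lay at 8.41. A probe set of the muscle protease gene Ky lay at 9.07 in LEA and between 5.39 and 5.65 on the nontumor arrays, with 5.29 at 4 weeks (-3.61, adjusted p = 0.00435). One probe set each of the receptor phosphatase Ptprk (-2.92), the urea transporter Slc14a1 (-2.13) and the protease inhibitor Timp3 (-1.46) was also called, and all 3 already lay over 1 log2 unit below LEA at 4 weeks. The called probe sets of Ky, Ptprk and Slc14a1 and the dimmer of the called probe sets of Scd2 lay within the range of absent RNA in nontumor liver, so their differences have no exact size. The brightest probe set of Ptprk gave -1.39 (adjusted p = 0.26), and the brightest probe sets of Ky, Slc14a1 and Timp3 were not called either.

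Since few genes were called, genes were also described without a test by their values on each array, a rule added after the data were seen. At least 1 log2 unit above LEA on all 4 nontumor arrays lay 66 genes (0.464% of those measured), and 45 lay as far below (0.317%). Among the higher genes 25 were already at least 1 log2 unit above LEA at 4 weeks, 34 were within 1 log2 unit of LEA at 4 weeks and at least 1 log2 unit higher in nontumor liver than then, and 7 met neither condition. Among the lower genes these counts were 33, 6 and 6. Lower genes were thus mostly low in young LEC liver already, while 34 of the 66 higher genes were not yet high there. On the 26 and 39 week arrays, 28 of the 34 later genes and 24 of the 25 early genes also lay at least 1 log2 unit above LEA on both. Of the lower genes, 32 of the 33 early and 1 of the 6 later ones did so below LEA. All these counts subtract the single LEA array by which the genes were picked, so such overlap is partly built in. The share of all genes this far from LEA on both the 26 and 39 week arrays was not counted. Without array 1 the higher genes numbered 119 and the lower 76, and with arrays 3 and 4 alone 225 and 228.

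**Figure D2:**
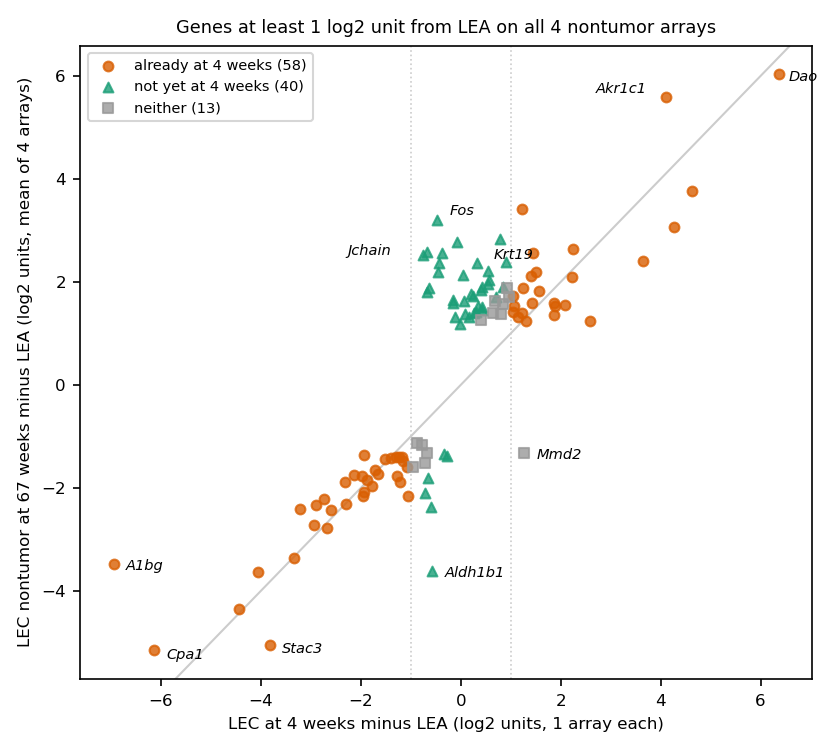
Difference from LEA in log2 units at 4 weeks (horizontal axis, 1 array each) and in nontumor liver at 67 weeks (vertical axis, mean of 4 arrays) for the 111 genes at least 1 log2 unit from LEA on all 4 nontumor arrays; both axes subtract the same LEA array, so the diagonal trend is partly built in. Orange circles near the diagonal, such as Dao, Akr1c1, Cpa1 and Stac3, were already displaced at 4 weeks, and green triangles, such as Fos, Jchain, Krt19 and Aldh1b1, were not.

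The genes named from here on were chosen after their values were seen, with some exceptions. These were the called genes, Krt19, Col1a1, Col3a1, Ccnd1, Mki67, Mt2A, Mt1, Cp, Hamp, Tfrc, Nqo1, Alb, Cyp2c11 and the fixed genes given last. The rules that set the exceptions were themselves written with earlier results of these data known. Unless a call is stated, genes named from here on were not called, and their values describe these arrays.

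Higher genes already displaced at 4 weeks were of several kinds. Pfkfb1, the liver enzyme that sets the level of fructose 2,6-bisphosphate, lay at 9.59, 9.15, 9.64 and 10.12 in nontumor liver and 7.22 in LEA, and highest, at 10.88, at 4 weeks (2.40 ± 0.34, adjusted p = 0.147). Acsm2, a medium-chain acyl-CoA synthetase, lay at 11.69, 11.03, 11.30 and 10.90 against 8.66 in LEA and 10.11 at 4 weeks, so all 4 nontumor values also exceeded the 4 week value. Pir, a nuclear iron-binding protein, lay between 9.24 and 9.97 against 7.35 in LEA and 8.85 at 4 weeks. Gpm6a, a membrane glycoprotein, lay at 8.11, 9.08, 8.5 and 6.57 with LEA within the range of absent RNA (4.29), and array 4 was the lowest of the LEC arrays, whose 4 week level was 8.92. The laminin-binding integrin Itga6 lay between 8.52 and 9.37 against 7.16 and 8.42, and the collagen-binding Itga1 between 10.24 and 10.58 against 8.97 and 10.20. Other probe sets of Itga6 differed from LEA by 1.10, 1.30 and -0.38.

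Among the lower genes already displaced at 4 weeks, Cox8b, a subunit of cytochrome oxidase found mainly in muscle, lay at 6.25, 6.19, 6.74 and 6.84 against 9.27 in LEA and 6.59 at 4 weeks (-2.77 ± 0.29, adjusted p = 0.0572). The sodium-proton exchanger Slc9a9 lay between 7.79 and 8.80 against 10.95 and 8.01, and Bco1, which cleaves carotenoids to retinal, between 8.13 and 8.52 against 10.01 and 8.36. By these probe sets every LEC array lay over 1 log2 unit below LEA for these 3 genes. A second, dimmer probe set of Slc9a9 went the other way, between 6.75 and 7.06 in nontumor liver against 6.43 in LEA (0.42), so its fall rests on 1 probe set. Rgs16, a brake on G-protein signals, lay at 9.10, 9.54, 8.25 and 8.10 against 11.15 in LEA and 7.94 at 4 weeks. A pair of genes that restrain the breakdown of triglycerides also stood lower: G0s2 at 11.19, 10.61, 9.85 and 9.78 against 12.51 in LEA and 11.45 at 4 weeks, and Angptl4 at 9.83, 10.06, 9.39 and 8.16 against 11.13 and 9.16. A1cf, which guides the editing of apolipoprotein B mRNA, lay between 8.86 and 9.74 against 10.89 in LEA and 9.82 at 4 weeks.

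Bile duct and progenitor cell genes stood furthest above LEA of the 36 gene lists by their median. Of 23 measured, 16 lay above LEA on all 4 nontumor arrays and 1 below, where 20.1% of all genes lay above and 28.8% below. The median difference was 0.58, 1.02, 1.17 and 0.46 on nontumor arrays 1 to 4, against a median over all genes of -0.03, and 0.05 at 4 weeks. The 6 members that were at least 1 log2 unit higher on all 4 arrays were Tspan8, Krt19, Cd24, Dmbt1, Cftr and Krt8, and all 6 lay within 1 log2 unit of LEA at 4 weeks.

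Krt19, a keratin of bile duct cells, lay at 7.74, 9.08, 9.73 and 7.76 on the nontumor arrays, 6.21 in LEA and 6.54 at 4 weeks (2.36 ± 0.80, adjusted p = 0.526). Arrays 2 and 3 stood over 1 log2 unit above arrays 1 and 4, and all 4 exceeded LEA. Cd24, a surface protein of progenitor cells, showed that order too, at 7.64, 8.72, 9.18 and 8.06 against 6.27 in LEA and 6.32 at 4 weeks. Tspan8 lay at 8.59, 8.95, 10.13 and 8.30 against 6.44. The chloride channel Cftr, which drives secretion in bile ducts, lay at 7.68, 8.66, 8.92 and 7.95 against 6.58. Krt8, a keratin that hepatocytes make as well, varied less, at 12.14, 12.24, 12.62 and 12.38 against 11.03 in LEA and 11.20 at 4 weeks (1.31 ± 0.20, adjusted p = 0.17). Of the 5 bile duct markers 4 were measured and 3 lay above LEA on all 4 arrays; their summed level was 10.22 to 11.98 in nontumor liver, 9.73 in LEA and 10.33 at 4 weeks. Krt7, the remaining one, lay at 6.49 in LEA and 6.07 to 6.77 in nontumor liver. The part of cell numbers in the rise of these genes was not tested.

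**Figure D3:**
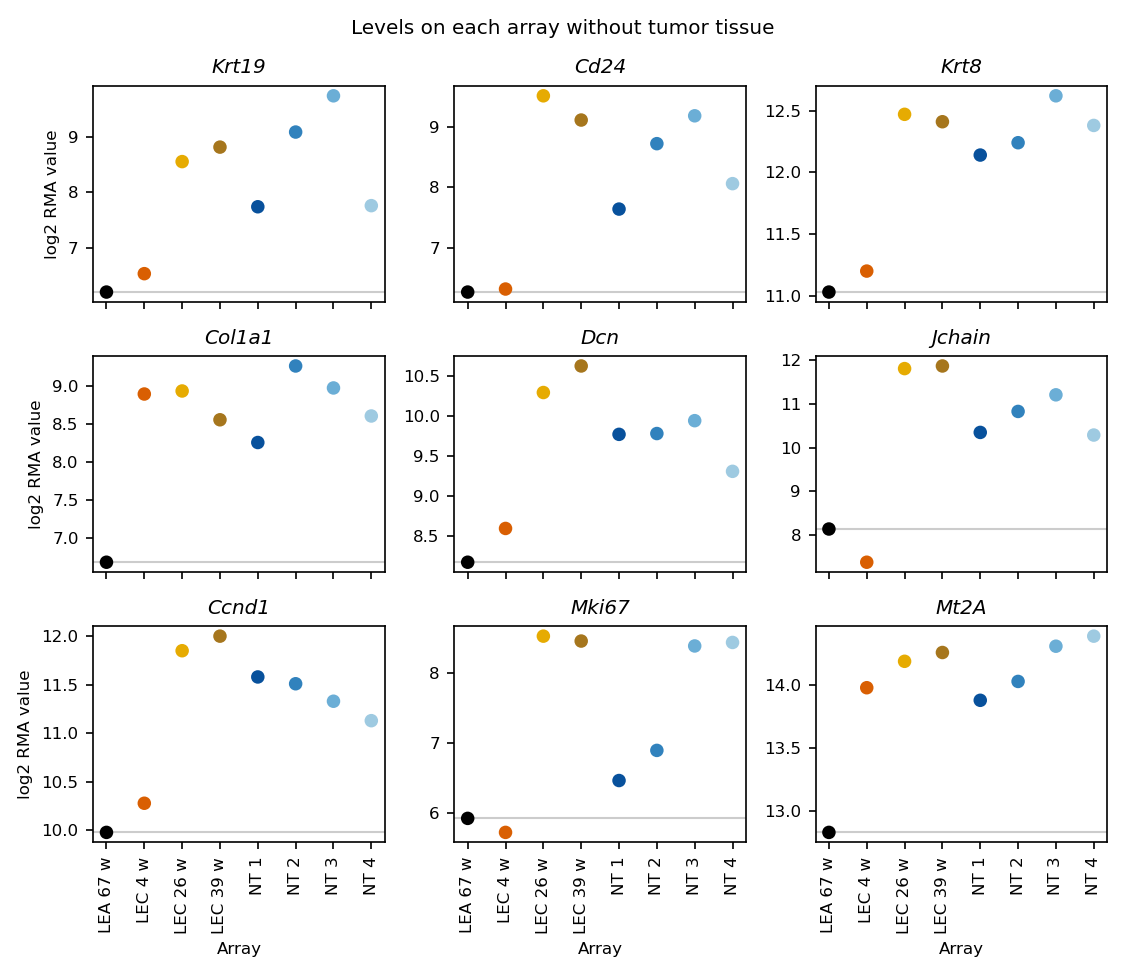
Level on a log2 scale (vertical axes, each panel with its own range) of 9 genes on the 8 arrays without tumor tissue (horizontal axis; NT 1 to NT 4 are the nontumor arrays), with the LEA level as a grey line. Krt19, Cd24, Krt8, Dcn, Jchain, Ccnd1 and Mki67 lie within 1 log2 unit of LEA at 4 weeks and higher on the later LEC arrays, while Col1a1 and Mt2A are already high at 4 weeks. On the LEC 26 w and LEC 39 w arrays, age cannot be told apart from their difference in Xist.

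Matrix and stellate cell genes divided by their 4 week level. Of 51 measured, 26 lay above LEA on all 4 nontumor arrays and 3 below, and 6 were at least 1 log2 unit higher on all 4. The list median was 0.36 in nontumor liver and also 0.36 at 4 weeks. The fibrillar collagens were as high at 4 weeks as at 67: Col1a1 lay at 8.26, 9.27, 8.98 and 8.61 in nontumor liver, 6.68 in LEA and 8.90 at 4 weeks (2.10 ± 0.37, adjusted p = 0.225). Col1a2 lay between 8.11 and 8.83 in nontumor liver and at 6.96 in LEA, with 9.05 at 4 weeks, and Col3a1 between 10.66 and 11.20 against 9.61, with 11.48 at 4 weeks. At 4 weeks Col1a1 thus lay within the nontumor range and Col1a2 and Col3a1 above it, while the LEA array lay below every LEC array for all 3. A second probe set of Col1a1 differed from LEA by only 0.81. Its 4 week level of 8.71 lay above its nontumor range of 8.03 to 8.59. Col1a1 and Col3a1 were called with the spread of all 12 arrays (adjusted p = 0.0455 and 0.0369).

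Dcn, a proteoglycan that binds collagen, behaved otherwise, with 9.77, 9.78, 9.94 and 9.31 in nontumor liver, 8.18 in LEA and 8.60 at 4 weeks (1.52 ± 0.25, adjusted p = 0.191). Ccn1, a matricellular protein induced by growth factors, lay at 9.0, 9.0, 9.45 and 8.48 against 7.35 in LEA and 7.41 at 4 weeks. Its relative Ccn2 lay at 8.46, 9.56, 10.03 and 8.64 against 7.28 in LEA and 8.21 at 4 weeks. Pcolce, which aids procollagen processing, was highest in nontumor liver, between 10.17 and 11.11 against 8.85 in LEA, 9.05 at 4 weeks and at most 9.39 at 26 and 39 weeks. Stellate cell and fibroblast markers, 6 of 6 measured and 3 above LEA on all 4 arrays, summed to 11.77 to 12.22 in nontumor liver, 10.90 in LEA and 12.13 at 4 weeks. Lum lay within the range of absent RNA in LEA (4.80), and Pdgfrb lay at 8.20 in LEA against 8.11 to 8.22. The part of stellate cell numbers was not tested.

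Cell cycle genes lay above LEA on all 4 nontumor arrays in 23 of 36 cases and below in 4. The list median was 0.25, 0.21, 0.65 and 0.76 on arrays 1 to 4 and 0.13 at 4 weeks, so arrays 3 and 4 stood higher. Mki67, a marker of dividing cells, lay at 6.47, 6.90, 8.39 and 8.44 against 5.93 in LEA and 5.73 at 4 weeks, both within the range of absent RNA (1.62 ± 0.82, adjusted p = 0.649). Ccnd1, the cyclin that starts the cycle, went the other way among the arrays, at 11.58, 11.51, 11.33 and 11.13 against 9.98 in LEA and 10.28 at 4 weeks (1.41 ± 0.20, adjusted p = 0.151). Its 2 other probe sets gave 1.36 and 1.09. Ccnd1 was called with the spread of all 12 arrays (adjusted p = 0.0138) and with quantile normalization again (0.0392). Fos, an immediate early gene, lay at 9.08, 9.94, 11.21 and 8.57 in nontumor liver, far above 6.49 in LEA and 6.02, 7.27 and 6.45 at 4, 26 and 39 weeks (3.21 ± 0.93, adjusted p = 0.453). A second, dimmer probe set of Fos gave -0.24, so this rise rests on 1 probe set.

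Targets of NRF2, the regulator of antioxidant and detoxification genes, lay above LEA on all 4 arrays in 18 of 26 cases and below in 4. Their median was 0.28, 0.35, 0.77 and 0.84 on arrays 1 to 4 and 0.02 at 4 weeks. Abcc3, an exporter of conjugates, lay at 8.78, 8.90, 9.01 and 9.07 against 7.37 in LEA and 8.23 at 4 weeks (1.57 ± 0.16, adjusted p = 0.0532). The epoxide hydrolase Ephx1 lay between 13.72 and 13.85 against 12.77 in LEA and 13.39 at 4 weeks. The reductase Akr7a3 lay at 10.77, 10.82, 12.50 and 12.75 against 10.33 in LEA and 10.38 at 4 weeks, with arrays 3 and 4 well above arrays 1 and 2. Nqo1, the quinone reductase often used to read NRF2 activity, went against the list. It lay at 11.85 in LEA, 10.95, 10.89, 10.21 and 10.06 in nontumor liver and 9.77 at 4 weeks (-1.32 ± 0.38, adjusted p = 0.455).

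Lists of metabolism did not move as one. Cytochrome P450 genes of drug metabolism had a median of 0.18, with 7 of 25 above LEA on all 4 arrays and 4 below, and conjugation enzymes one of 0.11, with 10 of 31 above and 7 below. Respiratory chain genes had a median of -0.08, with 11 of 39 below on all 4 arrays and 3 above. Of all genes 28.8% lay below on all 4 arrays and 20.1% above. In fatty acid and triglyceride synthesis 18 of 33 genes lay below LEA on all 4 arrays and 4 above, with list medians of -0.15, -0.35, -0.72 and -1.01 on arrays 1 to 4 and -0.30 at 4 weeks. Fasn, the fatty acid synthase, lay at 12.49, 11.23, 11.04 and 10.96 against 12.64 in LEA, so array 1 was close to LEA and the other 3 were not. Elovl6, an elongase, lay at 10.86, 8.96, 8.03 and 7.95 (-2.05 ± 1.09 from LEA), and Acly, which supplies cytosolic acetyl-CoA, at 12.73, 11.80, 11.27 and 10.96 against 12.81. At 4 weeks Fasn lay at 12.10, Elovl6 at 10.48 and Acly at 12.29, within the spread of the nontumor arrays. In cholesterol synthesis and lipoproteins 11 of 34 genes lay below on all 4 arrays and 3 above, with a median of -0.33, and -0.13 without array 4; that count is near the 28.8% of all genes that lay below.

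In urea cycle and amino acid breakdown 26 of 52 genes lay below LEA on all 4 arrays and 4 above, with a median of -0.32 in nontumor liver and -0.05 at 4 weeks. Oat, the ornithine aminotransferase of perivenous hepatocytes, lay at 11.26, 11.27, 9.85 and 8.94 against 12.69 in LEA and 12.09 at 4 weeks (-2.36 ± 0.92, adjusted p = 0.584). Aldh1b1, a mitochondrial aldehyde dehydrogenase, stood apart from the other arrays in nontumor liver, at 6.74, 6.86, 7.88 and 8.14 against 11.02 in LEA and 10.45, 10.22 and 9.89 at 4, 26 and 39 weeks (-3.61 ± 0.58, adjusted p = 0.179). Both belong to the list of perivenous and retinol genes, of which 14 of 26 lay below LEA on all 4 arrays and 2 above. Hepatocyte identity and nuclear receptor genes lay below on all 4 arrays in 15 of 33 cases and above in 1, with a median of -0.17. The serum protein gene Alb, at 14.53 to 14.57 against 14.59 in LEA, lay near the top of the scale.

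**Figure D4:**
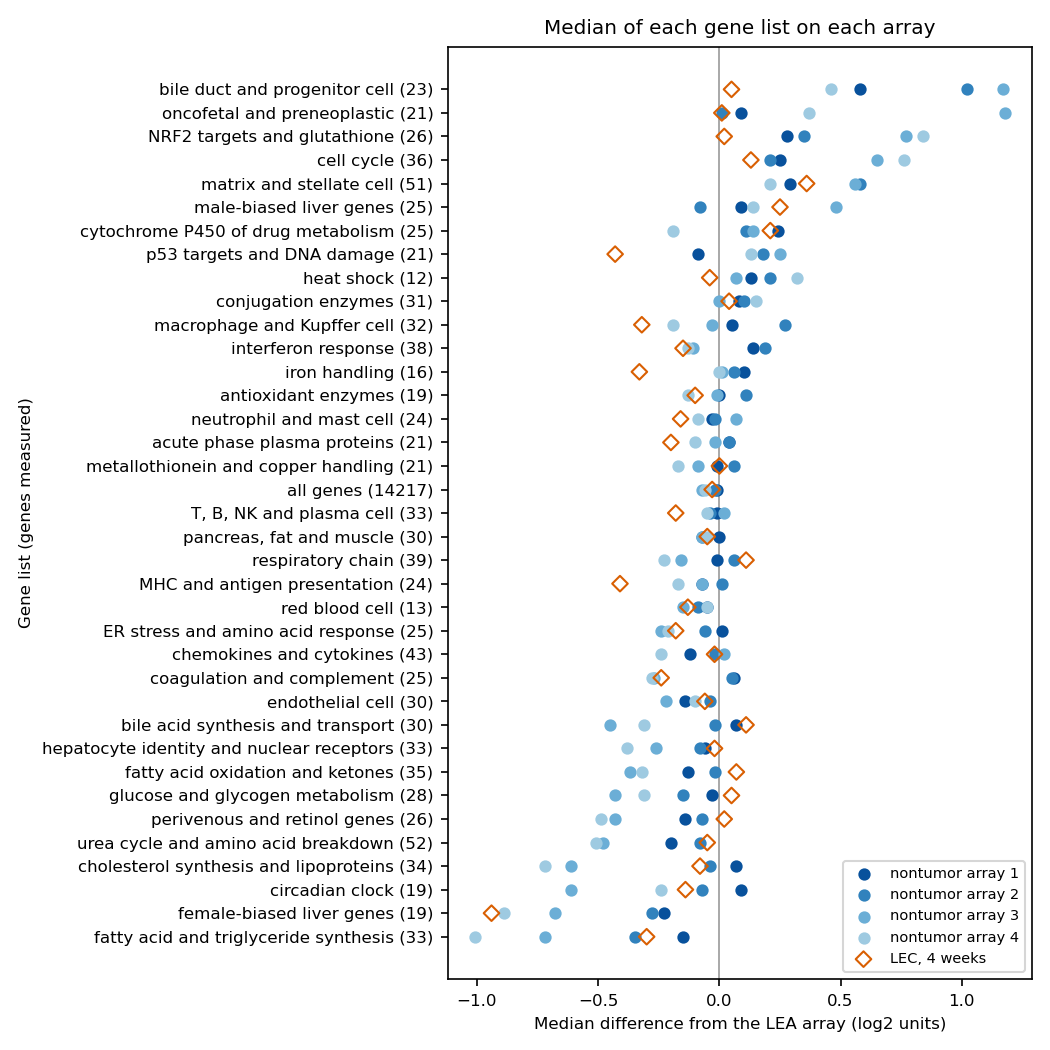
Median difference from the LEA array in log2 units (horizontal axis) of each of 36 gene lists and of all genes (vertical axis, genes measured in brackets), with the 4 nontumor arrays as blue circles and LEC at 4 weeks as open orange diamonds. By the mean over the 4 arrays, bile duct genes have the highest median and fatty acid synthesis genes the lowest, an order that single arrays do not all share, and arrays 3 and 4 lie further from 0 than arrays 1 and 2 for most metabolic lists.

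Genes with female-biased expression in rat liver differed between the pairs of nontumor arrays. The median level of 19 female-biased genes was 11.98, 12.04, 10.74 and 10.64 on arrays 1 to 4, 12.17 in LEA and 10.66 at 4 weeks. The median of 25 male-biased genes, at 9.88, 10.42, 10.82 and 10.34, against 10.30 in LEA and 11.30 at 4 weeks, did not separate the pairs. A1bg, a plasma protein made mainly in female rat liver, lay at 12.41, 12.04, 6.90 and 9.31 against 13.64 in LEA and 6.70 at 4 weeks. The male-biased Cyp2c11 lay at 8.24, 7.58, 10.77 and 9.99 against 8.28 in LEA and 12.80 at 4 weeks, above LEA on arrays 3 and 4 only, and with arrays 1 and 2 alone its difference turned from 0.87 to -0.37. Cyp2c13, also male-biased, lay at 9.96, 9.77, 12.66 and 12.77 against 8.22 and 12.48. Lifr is counted among the female-biased genes and Stac3 among the male-biased ones, and both lay lower on arrays 3 and 4 than on arrays 1 and 2. The part of this pattern in the differences of other genes was not tested.

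Immune genes as lists stayed near LEA, with medians of -0.04 for T, B, NK and plasma cell genes, 0.04 for macrophage genes and 0.00 for neutrophil genes. Single genes stood out from them. Jchain, which joins antibody subunits in plasma cells, lay at 10.35, 10.83, 11.21 and 10.29 against 8.14 in LEA, 7.38 at 4 weeks and 11.81 and 11.87 at 26 and 39 weeks (2.53 ± 0.36, adjusted p = 0.151). Of the 5 lymphocyte markers measured, Jchain was the highest on every one of these arrays. Their summed level was 10.89 to 11.56 in nontumor liver and 9.82 in LEA. On all 4 arrays 2 of these markers lay above LEA and 1 below. In the list of T, B, NK and plasma cell genes, 8 of 33 lay above LEA on all 4 arrays and 9 below. Of all genes 20.1% lay above and 28.8% below. The calcium-binding protein S100a9 of neutrophils lay at 9.81, 10.48, 10.16 and 9.73 against 9.03 in LEA, 6.78 at 4 weeks and at most 7.13 at 26 and 39 weeks. The 3 neutrophil markers measured summed to 10.33 to 11.07 in nontumor liver and 9.72 in LEA, with 2 above LEA on all 4 arrays and Csf3r at 6.53 in LEA against 6.37 to 6.59. Fabp4, the fatty acid carrier of fat cells and macrophages, lay at 7.67, 7.60, 7.91 and 8.22 against 5.64 in LEA, while the fat markers Adipoq (6.28) and Plin1 (6.89) in LEA stood within 0.5 log2 units of every nontumor array.

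Copper handling genes showed no common direction. Of 21 measured, 6 lay above LEA on all 4 arrays and 7 below, with a median of -0.03. Mt2A, the metallothionein that binds copper and zinc, lay at 13.88, 14.03, 14.31 and 14.39 in nontumor liver and 12.83 in LEA, and already at 13.98 at 4 weeks (1.32 ± 0.23, adjusted p = 0.217). Atp7a, the copper ATPase of most other tissues, stood at 11.34 on array 1 and between 8.81 and 8.90 on the other 3, against 8.56 in LEA. The probe set of Mt1 lay at 8.5, 8.59, 8.20 and 7.81 against 8.53 in LEA. Ceruloplasmin, Cp, lay between 13.58 and 13.94 against 13.86 in LEA by its brightest probe set. Another probe set of Cp gave -0.05, and the dimmest, above LEA on all 4 arrays, gave 0.83 (adjusted p = 0.655). The copper chaperone Atox1 lay between 11.83 and 12.13 against 11.60. The iron hormone Hamp lay between 12.84 and 13.38 against 13.49, and Tfrc, the transferrin receptor, between 10.83 and 11.61 against 10.13 (1.12 ± 0.29, adjusted p = 0.406).

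The sequences just upstream of 3 of these genes are shown because metals and interferons act on known motifs there: Mt2A as the metallothionein that stood above LEA, Lgals3bp as a called gene not yet higher at 4 weeks, and Dao as one of the 2 largest rises. Each is 250 bases ending at the gene's start, from RefSeq, rat build GRCr8, minus strand, read 5′ to 3′; the reference is not of the LEC or LEA strain.
Mt2A (chr19:10838709-10838958): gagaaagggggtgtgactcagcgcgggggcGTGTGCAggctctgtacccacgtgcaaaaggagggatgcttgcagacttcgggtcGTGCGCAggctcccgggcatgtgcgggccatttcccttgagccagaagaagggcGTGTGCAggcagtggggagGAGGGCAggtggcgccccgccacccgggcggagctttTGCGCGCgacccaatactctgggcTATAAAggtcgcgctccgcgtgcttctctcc
Lgals3bp (chr10:104127849-104128098): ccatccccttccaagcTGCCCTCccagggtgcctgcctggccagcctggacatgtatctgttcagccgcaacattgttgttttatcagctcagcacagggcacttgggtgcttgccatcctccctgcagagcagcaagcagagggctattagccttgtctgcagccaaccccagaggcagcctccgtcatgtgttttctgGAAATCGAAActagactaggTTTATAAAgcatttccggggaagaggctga
Dao (chr12:48273301-48273550): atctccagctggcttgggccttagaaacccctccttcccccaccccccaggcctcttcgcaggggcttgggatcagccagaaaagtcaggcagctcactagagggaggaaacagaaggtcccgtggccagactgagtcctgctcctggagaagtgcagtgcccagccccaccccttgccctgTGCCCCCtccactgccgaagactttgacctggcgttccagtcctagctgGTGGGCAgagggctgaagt
Capitals mark matches on either strand to the metal response element core TGCNCNC, the interferon-stimulated response element (GAAA, any 2 bases, GAAA) or the TATA box TATAAA. Mt2A holds 5 matches to TGCNCNC and 1 TATA box, whose first letter lies 31 bases before the start. Of 33469 windows of this length, 43.4% hold at least 1 match to this looser form and 0.37% hold at least 5. Dao holds 2 and Lgals3bp 1. Those of Dao and Lgals3bp, and GAGGGCA in Mt2A, have C in place of R, so they do not match the stricter core. Windows with the stricter core were not counted. Lgals3bp also holds the interferon element, 50 bases before the start, which 3.41% of windows hold, and 2 overlapping TATA matches; 12.9% of windows hold a TATA match. A match describes letters only. The interferon response list, of 38 genes, had a median of 0.03, with 11 above and 8 below LEA on all 4 arrays.

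The remaining genes fixed for liver disease did not pass the test. Cdkn1a, the p53 target that halts the cycle, lay at 9.24, 9.80, 10.32 and 10.17 against 9.33 in LEA and 8.53 at 4 weeks by its brightest probe set, so array 1 did not exceed LEA there. By its dimmer probe set all 4 arrays did, at 6.34, 7.23, 8.13 and 7.49 against 6.20 in LEA (1.10, adjusted p = 0.668). Mdm2 (0.63 ± 0.26) and Ccng1 (0.38 ± 0.35), also p53 targets, and Hmox1, the heme oxygenase (0.56 ± 0.35), gave adjusted p-values of 0.602 to 0.784. Other probe sets of Mdm2 gave 1.23 and 1.08 and were not called. Gstp1, a marker of preneoplastic foci in rat liver, lay at 10.24, 10.31, 12.50 and 11.22 against 10.39 in LEA, above it on arrays 3 and 4 only, and its difference was 0.68 with all 4 arrays and -0.12 with arrays 1 and 2. Ggt1, another such marker, lay at 8.80, 9.24, 10.91 and 10.78 against 8.22 in LEA (1.71 ± 0.86, adjusted p = 0.649). The fetal genes Afp (-0.10 ± 0.19) and Gpc3 (1.20 ± 0.40), the growth factor Igf1 (-0.13 ± 0.20), Gsta3 (0.67 ± 0.50), the female-biased Cyp2c12 (-0.15 ± 0.17) and the secreted Spp1 (0.74 ± 0.26) and Lcn2 (1.16 ± 0.54) had adjusted p-values from 0.525 to 0.888. Lcn2 lay at 7.83 at 4 weeks, 3.28 below LEA, so its LEA level was nearer to nontumor than to young LEC liver.

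Nontumor liver was also compared with LEC liver at 4 weeks, which needs no LEA array but differs in age. Here 9 probe sets were called (0.029%), and 2960 had an unadjusted p under 0.05. The organic anion transporter Slc22a8 fell from 10.96 at 4 weeks to between 7.31 and 7.90 (-3.35, adjusted p = 0.0321), the zinc finger gene Zfp354a from 10.75 to between 7.66 and 7.85 (-2.99, adjusted p = 0.0116) and Mmd2 from 10.59 to between 7.82 and 8.14 (-2.59, adjusted p = 0.0266). The LEA array at 67 weeks lay close to nontumor liver for Slc22a8 (8.05) and Zfp354a (7.98), and between the ages of LEC liver for Mmd2 (9.32). All 3 probe sets of Rup2 rose (2.70 to 3.66, adjusted p from 0.00936 to 0.0153), and so did Wfdc21, from 9.0 to between 12.13 and 12.67 against 11.72 in LEA. None of these genes was called against LEA. Without array 2 or 3 limma called 0 probe sets in this comparison, with 2730 and 2031 at an unadjusted p under 0.05, and without array 4 it called 6.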

How the data were processed

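Per the labels' protocols, 3 µg of total RNA went into each labelling. As the authors deposited them, the values are log2 expression levels. The submitters' processing notes name RMA and R 2.6.1; RMA corrects background, normalizes by quantiles and summarizes probes. Joint normalization of the 12 arrays is not given in the sources used here. Array medians lay between 7.39 and 7.44 on the 8 arrays used, and no further normalization was applied.

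Of 31099 probe sets 57 controls were left out. The annotation table named 1 gene for 20826, several for 436 and none for 9780, and 20758 symbols were updated by Entrez identifier. Group means on the 8 arrays without tumor tissue were fitted with limma 3.58.1 (lmFit, eBayes; 2.9 prior degrees of freedom) in R 4.3.3, two-sided, with Benjamini-Hochberg adjustment over 31042 probe sets. The fit was tested on simulated data for this comparison, with 31042 probe sets: of 50 each shifted by 0.5, 1, 2 or 4, it called 0, 19, 50 and 50, and 7 of its 126 calls were false. The simulation gave every array, LEA included, the same independent spread and no pairs among the nontumor arrays. Its counts therefore need not hold for the real arrays. A gene was represented by its probe set of highest mean over the 8 arrays. The fold bound for a gene within the range of absent bacterial RNA (27 probe sets) uses the higher of that range's top and the gene's own level, per array. Gene lists (36, with 1013 of 1172 entries measured) were counted without a set test. All members, lists and rules were chosen with earlier results of these data known. Named were called genes with the largest differences, called list members and 28 fixed genes, of which 27 were measured. Uncharacterized loci were passed over, and not every gene is printed. Alternatives were the spread of all 12 arrays, array medians subtracted, quantile normalization again, dim probe sets left out, a trended robust prior, other thresholds of difference, means over probe sets, leaving out each nontumor array and, added after seeing the data, each pair of nontumor arrays alone. Tables and plots used Python 3.11.15, pandas 2.3.3 and matplotlib 3.10.9.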

Additional observations from a re-analysis of the deposited data

Results flagged for a closer look

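In 6 of 169 levels and list medians checked over the 4 nontumor arrays, 1 array stood far from the others by Dixon's criterion, and chance alone flags about 1 in 20. Array 1 was low for Celf5 (7.63, next 8.30) and for the p53 target Mdm2 (9.71, next 10.25). Array 4 was high for Csad (11.46, next 11.19) and low for Alb (14.53, next 14.57). Array 2 was low for Hyou1 (9.65, next 9.72), and array 3 was high for Fam111a (6.86, next 6.12). Csad, Hyou1 and Fam111a are called genes, and in each the lone array still lay over 1 log2 unit from LEA. The check did not cover every gene printed. Atp7a, whose array 1 stood far above the other nontumor arrays, is not among these 6.

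Outside the comparison with LEA, Eif2s3y, carried by the Y chromosome, reached 8.90 in the LEC pool of 26 weeks and 8.18 in that of 39 weeks. In LEA liver it lay at 3.80, and on the nontumor arrays between 3.74 and 3.81.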

How the results depend on the processing

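No paired analysis was possible because the LEA array carries no replicate number that it shares with a nontumor array. The 38 called probe sets became 169 with the spread of all 12 arrays (59 higher), 11 without dim probe sets, 5 to 33 when 1 nontumor array was left out, 176 with arrays 1 and 2 alone (95 higher) and 497 with arrays 3 and 4 alone (209 higher). Against LEC at 4 weeks, the 9 calls became 117, 184 and 184 with all 12 arrays and with each pair, and 0 to 9 when 1 array was left out. The 15 called genes already displaced at 4 weeks became 35, 6, 47 and 82 with all 12 arrays, without dim probe sets, with arrays 1 and 2 and with arrays 3 and 4, and 2 to 13 when 1 array was left out. The 2 not displaced became 15, 0, 23 and 123, fell to 1 with quantile normalization again or a trended robust prior, and numbered 0 to 2 when 1 array was left out. The 66 genes at least 1 log2 unit higher on all arrays numbered 225 with arrays 3 and 4 alone and 68 to 119 with 1 array left out. For the 45 lower genes these counts were 228 and 47 to 76, and 29 without dim probe sets.

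None of the 17 called genes changed direction under any alternative. Among the genes not called, Cyp2c11 (-0.37), Gstp1 (-0.12), Cp (0.07), Afp (0.02), Igf1 (0.04) and Mt1 (0.02) turned with arrays 1 and 2 alone. Cp also turned with quantile normalization again (0.03) and with means over probe sets (0.25), and it ranged from -0.09 to 0.03 when 1 array was left out. Over the alternatives 6 of 288 list medians moved by more than 1 SD, and the bile duct median was 1.25 without dim probe sets. Leaving out an array can only keep or raise the counts of genes at least 1 log2 unit from LEA on all arrays. Counts of calls fell or stayed with 1 nontumor array left out and rose with 2 arrays alone. Leaving out dim probe sets lowered the calls against LEA but raised those against LEC at 4 weeks from 9 to 12. The cause of the larger counts with 2 arrays, whose members resemble each other more, was not tested.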
